A study of Drosophila melanogaster with 4 samples.

Results

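Testis tumors of Drosophila melanogaster were compared by the source of Unpaired (Upd), a secreted ligand: the germline itself in Nanos-Upd tumors, the somatic cyst cells in TrafficJam-Upd tumors. The cells examined are those that the authors' deposited annotation names GSC-like, meaning like germline stem cells. They number 10889 of the 20618 cells of the series, in 4 libraries: 2407 cells in N1 and 5568 in N2, the replicates of Nanos-Upd, and 1119 cells in T1 and 1795 in T2, the replicates of TrafficJam-Upd. The Nanos-Upd flies carried y[1] w[1118] with a heat shock FLP insertion (P{hs70FLP}), a GAL4::VP16 driver with nanos sequences (P{w[+mC]=GAL4::VP16-nanos.UTR}) over UAS-Upd, and the reporter UAS-FRT-H3-GFP-FRT-H3-mKO. TrafficJam-Upd flies carried w[1118], a traffic jam GAL4 driver over UAS-Upd and the same reporter. Both genotypes thus share w[1118], UAS-Upd and the reporter, and they differ in the y allele, the FLP insertion and the driver. Crosses were kept at 25 °C, and tissue from pooled testes was digested at 37 °C. Ages are not given in the labels, tumors without Upd overexpression were not analysed here, and tumor type cannot be told apart from fly line. Nothing in the labels says whether the 2 libraries of a type came from separate pools, so p-values measure the spread between these libraries, which may be technical.

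In the fly testis, Upd is normally secreted by hub cells at the apical tip. It binds the receptor Domeless, activates the kinase Hopscotch and the transcription factor Stat92E, and thereby maintains the stem cells that lie around the hub. Germline stem cells and somatic cyst stem cells (CySC) both respond, and overexpressed Upd fills the testis with cells that resemble both. Germ cells that leave the stem cell state divide a few times, become spermatocytes with a large testis-specific transcription program, and then form spermatids whose late transcripts encode sperm proteins.

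The GSC-like label fitted the germline markers. The summed level of 9 germline markers (vas, nos, aub, AGO3, zpg, stet, ovo, bam and bgcn), in unique molecular identifiers (UMIs) relative to the class total (CPM), was 2625 and 3079 in the Nanos-Upd and 2742 and 2032 in the TrafficJam-Upd libraries, against 200 to 425 CPM in the authors' CySC-like class. None of the 9 was at 0. The 13 cyst lineage markers summed to 310 and 597 CPM in Nanos-Upd and 235 and 370 CPM in TrafficJam-Upd GSC-like cells, against 5097 to 7601 CPM in CySC-like cells. A GSC-like cell with UMIs of at least 2 of these cyst markers was called mixed; such cells made up 30.4 and 43.0% of the Nanos-Upd and 20.2 and 24.0% of the TrafficJam-Upd GSC-like cells. The sums held 5601331 to 21386875 UMIs per library, with medians of 3531 to 5014 UMIs per cell. The median share of ribosomal UMIs was 31.6% in N1, 29.3% in N2, 33.8% in T1 and 36.6% in T2, and that of mitochondrial UMIs was 4.06 to 5.73%. Libraries shared 35 cell barcodes, 7 of them among GSC-like cells.

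UMIs were summed over the GSC-like cells of each library, and the 4 sums were compared with edgeR's quasi-likelihood test. A gene was called at a Benjamini-Hochberg adjusted p under 0.05, and fold changes are Nanos-Upd over TrafficJam-Upd. Of 9466 genes tested, 295 were called (3.12%): 194 were higher (2.05%) and 101 lower (1.07%) in Nanos-Upd, and 2443 genes had an unadjusted p under 0.05. The median log2 fold change of all tested genes was 0.05. The genes called higher include upd1, the reporter H3-GFP, 3 glycolytic enzymes, the heat-inducible RNA lncRNA:Hsromega and 4 heat shock or chaperone genes. They also include 105 genes with a far higher level in the spermatocyte class, among them the glycolytic Pglym87 and the chaperones Hsp60B and Hsp60C. Those called lower include the uncharacterized gene CG1894, 3 translation factors, the ribosomal protein gene RpS14b and 3 genes of the spermatocyte program. The number of calls rested on the libraries used: it was 533 without N1, 1490 without N2, 684 without T1 and 312 without T2. With the authors' spermatocyte class added to the sums, no gene passed edgeR's adjusted p (922 at an unadjusted p under 0.05), so every call in GSC-like cells given below was lost in that setting. The size of the difference was kept for some genes there, with log2 values of -2.72 for CG1894, 4.18 for H3-GFP, 3.64 for upd1 and 1.72 for Eno, and was near 0 for others, such as S-Lap7 with -0.03.

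**Figure D1:**
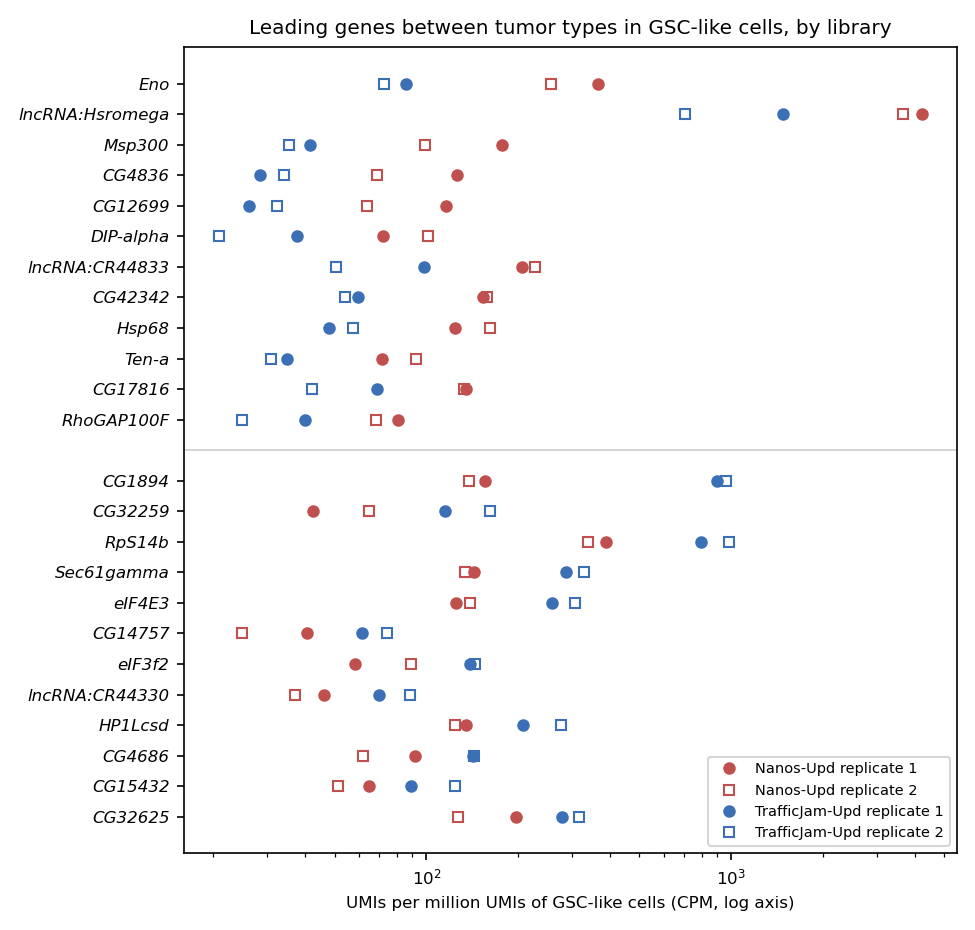
Level of 24 leading genes in GSC-like cells, in CPM on a log axis, with 1 point per library; the upper 12 genes were called higher and the lower 12 lower in Nanos-Upd. In every row the red Nanos-Upd points lie on one side of the blue TrafficJam-Upd points, with the widest gap at CG1894.

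The ligand itself was examined by cell. With each cell thinned to 2200 UMIs so that depths match, upd1 had a UMI in 10.3 and 9.90% of GSC-like cells in the Nanos-Upd libraries and in 0.536 and 1.06% in the TrafficJam-Upd libraries. Without thinning the shares were 18.5 and 15.3% against 0.894 and 2.06%. CySC-like cells, in which the nanos driver is not expected to act, had a thinned share of 0.595 and 2.15% in the Nanos-Upd libraries, so the TrafficJam-Upd share in GSC-like cells was close to that background. In the summed counts upd1 was 14.7-fold higher in Nanos-Upd (log2 fold change 3.88 ± 0.37 SE, edgeR adjusted p = 0.00171). Without T1 the log2 value was 3.26 and without T2 it was 5.02, both still called. UMIs of the UAS copy and of the endogenous gene cannot be told apart.

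Among the pathway's genes, the ligand alone was called with all 4 libraries. Of 23 JAK-STAT genes tested, 1 (upd1) was called higher and 0 lower, where 3.12% of all tested genes were called in either direction. The median log2 fold change of the list was 0.17. Values in the list ranged from -0.30 to 5.68 (log2), and the gene with the largest, which was not upd1, was not called. Leaving out N1, N2 or T1 gave 3, 4 and 3 genes called higher. The receptor gene dome was at 77.3 and 72.3 CPM in Nanos-Upd and 80.3 and 84.1 CPM in TrafficJam-Upd (log2 -0.29 ± 0.18 SE). Stat92E, the transcription factor, was at 254 and 238 against 227 and 184 CPM (0.11 ± 0.19 SE). Neither gene was called, and in neither did the tumor types overlap, with dome lower and Stat92E higher in Nanos-Upd. Libraries of 59.7% of all tested genes did not overlap. Socs36E, a target gene that feeds back on the pathway, was at 89.1 and 94.6 against 72.1 and 109 CPM (-0.15 ± 0.22 SE), and the tumor types overlapped. The target chinmo, which maintains stem cell identity in the testis, was at 696 and 804 against 760 and 566 CPM, also overlapping. The target zfh1, a self-renewal factor of cyst stem cells, was at 101 and 137 against 79.8 and 53.3 CPM and came nearest to the threshold (log2 0.70 ± 0.21 SE, edgeR adjusted p = 0.0752). It was higher in N1 and N2 than in T1 and T2; of the sums of the 13 cyst markers given above, that of N2 alone lay above both TrafficJam-Upd libraries. With the SEs given, a difference the size of that of upd1 would stand far outside these intervals, whereas much smaller changes would not have been called.

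Early germline identity also gave no calls, while 3.12% of all tested genes were called. Of 24 early germline genes tested, 0 were called in edgeR, with a median of 0.25 and log2 fold changes between -0.54 and 0.45; DESeq2 and the other settings called between 0 and 1. vas, an RNA helicase of the germ plasm, was at 258 and 291 CPM in Nanos-Upd and 261 and 226 CPM in TrafficJam-Upd. nos, a translational repressor of germline stem cells whose promoter drives Upd in 1 of the tumor types, was at 176 and 207 against 240 and 139 CPM. The Nanos-Upd driver carries nanos UTR sequence per the labels. UMIs of nos in Nanos-Upd may therefore include driver transcripts, so a difference of the endogenous gene could be hidden. The differentiation factor bam, which is switched on as germ cells leave the stem cell state, was at 69.9 and 114 against 101 and 74.0 CPM. In all 3 genes the tumor types overlapped.

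**Figure D2:**
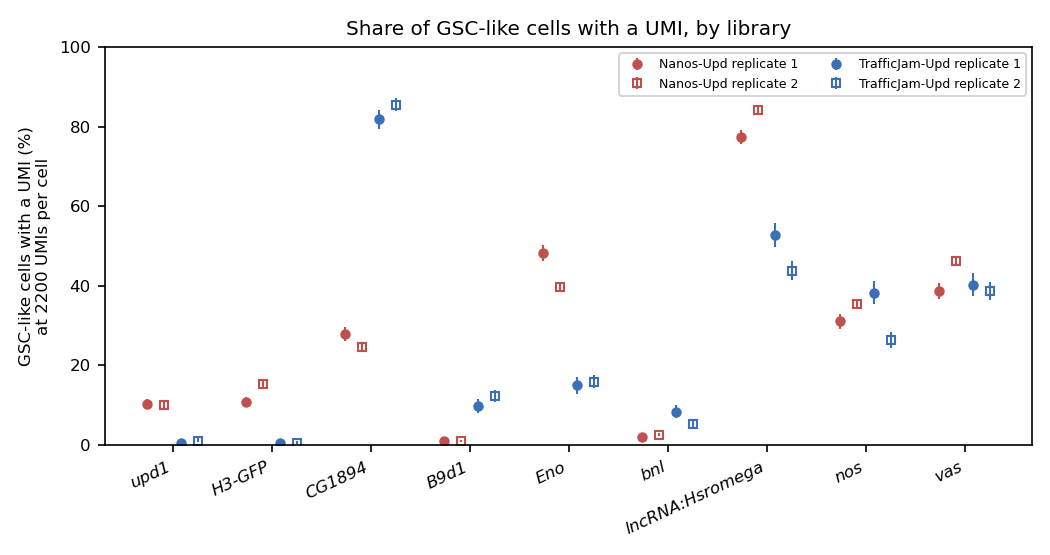
Share of GSC-like cells with at least 1 UMI of a gene, in percent, after thinning each cell to 2200 UMIs; points are libraries and bars exact 95% binomial intervals, which cover counting error only. CG1894 was found in 27.9 and 24.6% of Nanos-Upd against 81.9 and 85.5% of TrafficJam-Upd cells, while the shares of nos and vas overlapped between tumor types.

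Of 10 genes tied to the transgenes, 4 were called higher and 0 lower: upd1, H3-GFP, w and Hsp70Bc. Among all tested genes, 2.05% were called higher. H3-GFP, the reporter, had a UMI in 10.8 and 15.3% of thinned Nanos-Upd cells against 0.447 and 0.557% of TrafficJam-Upd cells, and its log2 fold change was 4.17 ± 0.27 (SE, edgeR adjusted p = 3.32e-07). w encodes a pigment precursor transporter of the eye and is the marker gene of the nanos driver insertion per the labels. It was at 53.7 and 57.8 CPM in Nanos-Upd and at 23.2 and 29.4 CPM in TrafficJam-Upd. The tumor types did not overlap (log2 0.92 ± 0.20 SE, edgeR adjusted p = 0.0266), but the call was lost without T1 (edgeR adjusted p = 0.136). Whether w UMIs came from the mutant gene or from marker copies cannot be told apart.

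Glycolysis is the chain of enzymes that turns glucose into pyruvate. Of its 20 genes tested, 3 were called higher and 0 lower, where 2.05% of all tested genes were called higher. The median log2 fold change was 0.01, so most members lay near the bulk of genes. Eno, the enolase, had a UMI in 48.2 and 39.7% of thinned Nanos-Upd cells against 14.9 and 15.9% in TrafficJam-Upd. Its difference of 1.83 ± 0.22 (SE, log2) was the largest increase among called genes of at least 50 CPM without overlap. Ald1, an aldolase, was at 66.6 and 62.0 against 21.6 and 25.2 CPM, 2.46-fold higher (log2 1.30 ± 0.20 SE, edgeR adjusted p = 0.00331). Pglym87, a phosphoglycerate mutase, was at 19.4 and 12.7 against 4.28 and 5.07 CPM (log2 1.61 ± 0.34 SE, edgeR adjusted p = 0.0214). Its spermatocyte-class level was at least 10 times its GSC-like level, and in CySC-like cells it was at 23.7 and 13.9 against 8.84 and 8.89 CPM. With the spermatocyte class added to the sums, its log2 fold change was 0.22, against 0.67 for Ald1 and 1.72 for Eno. All 3 were called without each library in turn. The enzymes on either side of them did not move with them: Gapdh1 was at 108 and 98.3 against 89.1 and 94.8 CPM, Pgk at 118 and 100.01 against 114.97 and 110.2 CPM, and PyK, the pyruvate kinase, at 169.5 and 181 against 173 and 165 CPM. The widely used mutase gene Pglym78 was at 16.9 and 19.8 against 20.4 and 22.7 CPM, with the lower values in Nanos-Upd. Among pentose phosphate and nucleotide genes, 1 of 24 was called, the transketolase CG8036, at 98.8 and 97.2 against 50.9 and 54.3 CPM (edgeR adjusted p = 0.0395). It lost the call without N1 (edgeR adjusted p = 0.0822), without T1 (0.205) and without T2 (0.0815). Lsd-2, a perilipin that coats lipid droplets, was at 243 and 165 against 82.3 and 99.0 CPM (log2 1.01 ± 0.22 SE, edgeR adjusted p = 0.0274), the only one of 23 lipid genes called. Its edgeR adjusted p rose to 0.113 without N1 and to 0.0719 without T1.

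A heat-inducible RNA and 4 heat shock or chaperone genes were called higher in Nanos-Upd cells, as were 2.05% of all tested genes. lncRNA:Hsromega, a nuclear RNA that accumulates after heat shock and organizes nuclear speckles, was at 4223 and 3652 CPM in Nanos-Upd and at 1481 and 705 CPM in TrafficJam-Upd. The 2 TrafficJam-Upd libraries differed from each other but stayed below both Nanos-Upd libraries (log2 1.71 ± 0.31 SE, edgeR adjusted p = 0.0315). Of 37 heat shock and chaperone genes tested, 4 were called higher and 0 lower, with a median of 0.22; the count was 7 without N1, 9 without N2 and 6 without T2. Hsp68, an inducible chaperone, was at 124 and 162 against 47.8 and 57.4 CPM, 2.43-fold higher (edgeR adjusted p = 0.00377). Hsp70Bc was at 10.4 and 13.7 against 3.93 and 3.25 CPM (edgeR adjusted p = 0.0337, and 0.0730 without T2). It is one of several near-identical Hsp70 copies, so its counts are uncertain. Its level was also higher in Nanos-Upd CySC-like cells, at 21.1 and 27.6 against 6.59 and 6.52 CPM (log2 1.74 ± 0.21 SE). Hsp60B and Hsp60C are mitochondrial chaperonin genes with roles in fly spermatogenesis. Hsp60B was at 26.1 and 17.6 against 7.50 and 4.42 CPM, and Hsp60C at 31.8 and 16.4 against 5.36 and 7.15 CPM. Both had a spermatocyte-class level at least 10 times the GSC-like level. With that class added to the sums, their log2 fold changes were 0.13 and -0.09. More abundant chaperones were not called: Hsp26 was at 842 and 821 against 803 and 1025 CPM, and Hsp60A at 161 and 185 against 192 and 162 CPM. Of 26 early stress response genes, 0 were called in edgeR; 5 were called higher without N2, and 1 higher and 2 lower without T1. lncRNA:Hsromega lost its call when mixed cells were left out (edgeR adjusted p = 0.0707) and with at least 3000 UMIs per cell (0.0550), while its log2 fold change was 1.87 and 1.64 there.

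Msp300, a giant nesprin that anchors nuclei, was at 177 and 98.8 CPM in Nanos-Upd and at 41.4 and 35.5 CPM in TrafficJam-Upd (log2 1.70 ± 0.27 SE, edgeR adjusted p = 0.00961). Without mixed cells its log2 fold change was 1.94 and the call was lost (edgeR adjusted p = 0.129). Its level in CySC-like cells was 206 to 329 CPM. DIP-alpha, an immunoglobulin-domain receptor, was at 71.8 and 101 against 37.7 and 20.9 CPM, and Ten-a, a teneurin adhesion molecule, at 71.7 and 92.8 against 35.0 and 30.9 CPM. Absence of overlap was part of the rule that chose the leading genes. CG42342 was at 153 and 158 against 59.8 and 54.2 CPM, and lncRNA:CR44833 at 205.4 and 227 against 98.5 and 50.4 CPM. CG17816 and RhoGAP100F, the latter a GTPase-activating protein of synapses, were 2.20-fold and 2.10-fold higher, and both calls were lost without T2 (edgeR adjusted p = 0.0664 and 0.110). CG4836 and CG12699 complete the 12 leading increases, with N1 the highest. They were at 126 and 68.9 against 28.4 and 34.0 CPM and at 116 and 63.9 against 26.2 and 32.3 CPM. In CySC-like cells they were at 154 and 75.9 against 41.8 and 52.4 CPM and at 139 and 60.3 against 29.5 and 44.7 CPM. With the spermatocyte class added to the sums, their log2 fold changes were -0.06 and -0.26. Both calls were lost with at least 3000 UMIs per cell (edgeR adjusted p = 0.0559 for each). Another 3 regulators were picked after their values were seen. EcR, the ecdysone receptor, was at 73.8 and 60.2 against 38.4 and 24.8 CPM (edgeR adjusted p = 0.0317). br, a transcription factor induced by ecdysone, was at 47.6 and 42.7 against 14.3 and 15.98 CPM (edgeR adjusted p = 0.00183). Mmp2, a matrix metalloprotease, was at 23.2 and 28.1 against 11.4 and 8.18 CPM (edgeR adjusted p = 0.0133). EcR lost its call without N1 (edgeR adjusted p = 0.0622) and without T2 (0.193).

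Of the 12 leading decreases, that of the uncharacterized gene CG1894 was the largest. The gene (FBgn0039585; dm6, chromosome 3R, 28484557 to 28486062, plus strand) was at 156 and 138 CPM in Nanos-Upd and at 897 and 963 CPM in TrafficJam-Upd. The groups were far apart, with a 7.02-fold lower level in Nanos-Upd (log2 -2.81 ± 0.21 SE, edgeR adjusted p = 1.95e-06). The gene was found in most thinned TrafficJam-Upd cells, and in CySC-like cells of the same libraries in only 14.1 and 20.3%. B9d1, which encodes a protein of the ciliary transition zone, was chosen after its values were seen. It was at 4.31 and 3.74 against 48.4 and 67.0 CPM, 16.1-fold lower (edgeR adjusted p = 3.32e-07), and both genes were called without each library in turn. CG32640 had 0 UMIs in both Nanos-Upd libraries against 17 and 26 UMIs in TrafficJam-Upd, which makes its level at least 35.6-fold lower at a floor of 3 counts over the group. The reverse held for RunxB, a RUNX-family transcription factor gene, with 14 and 40 against 0 and 0 UMIs, at least 7.25-fold higher in Nanos-Upd, and for CG32318, with 17.4 and 13.6 against 0.714 and 0.520 CPM (edgeR adjusted p = 0.000191). These last genes were likewise chosen after their values were seen.

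Of 55 translation factors tested, 3 were called lower and 1 higher, with a median of -0.06. The shares over all tested genes were 1.07% lower and 2.05% higher. eIF4E3, a cap-binding factor that acts in spermatocytes, was at 125 and 139 against 259 and 307 CPM (log2 -1.25 ± 0.20 SE, edgeR adjusted p = 0.00415). eIF3f2 was at 58.1 and 88.8 against 139 and 144 CPM, and eIF4E6 at 11.5 and 11.7 against 17.1 and 24.4 CPM. eIF3f2 lost its call without N1 (edgeR adjusted p = 0.0600) and eIF4E6 without T2 (0.511). eIF4E4 went the other way, at 20.9 and 10.5 against 5.36 and 4.29 CPM (edgeR adjusted p = 0.0369). Its log2 fold change fell from 1.56 to 0.96 without N1, and to -0.20 with the spermatocyte class added to the sums. In CySC-like cells eIF4E4 was likewise higher, at 27.4 and 12.7 against 5.84 and 8.10 CPM. The testis-specific subunits of the nascent polypeptide associated complex, chosen after their values were seen, were lower as a trio on chromosome X: betaNACtes3 was at 8.27 and 8.37 against 18.9 and 27.5 CPM (edgeR adjusted p = 0.00420), and betaNACtes1 and betaNACtes2 were 15.8-fold and 6.49-fold lower. betaNACtes1 and betaNACtes2 lost their calls without T2 (edgeR adjusted p = 0.0990 and 0.163), and the 3 genes resemble each other, so their split is uncertain. RpS14b, a small-subunit ribosomal protein, was at 389 and 340 against 796 and 986 CPM (log2 -1.45 ± 0.21 SE, edgeR adjusted p = 0.00183); it has a near-identical neighbour copy, RpS14a, so the counting could split their reads. Sec61gamma, a subunit of the channel into the endoplasmic reticulum, was at 143 and 133 against 287 and 330 CPM (edgeR adjusted p = 0.00283).

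Of 29 genes of the spermatocyte program tested, 2 were called higher and 3 lower, with a median of 0.27. Among all tested genes the shares were 2.05% higher and 1.07% lower. The counts were 1 higher and 5 lower without N1, 5 and 6 without N2, 1 and 6 without T1, and 3 and 1 without T2. nht, a testis version of a general transcription factor subunit, was at 4.74 and 3.60 against 10.7 and 23.9 CPM. achi, a homeodomain protein of the testis meiotic arrest complex, was at 19.6 and 15.2 against 34.1 and 38.3 CPM (edgeR adjusted p = 0.00629). aly, another regulator of that complex, was at 8.70 and 9.40 against 18.9 and 18.1 CPM. These 3 were lower in both Nanos-Upd libraries. soti, transcribed after meiosis, was at 17.1 and 8.37 against 1.43 and 3.51 CPM, and sunz at 4.13 and 1.96 against 0.178 and 0.390 CPM. Without T2 the calls of nht and aly were lost (edgeR adjusted p = 0.179 and 0.0850), and that of sunz was lost without 3 of the 4 libraries, with edgeR adjusted p up to 0.148. soti moved between 1.53 and 3.05 (log2) over the libraries left out. The 12 spermatocyte markers as a whole summed to 163 and 119 CPM in Nanos-Upd and 125 and 175 CPM in TrafficJam-Upd GSC-like cells and overlapped. cona, a synaptonemal complex protein gene chosen after its values were seen, was at 129 and 105 against 177 and 177 CPM (edgeR adjusted p = 0.0476, and 0.181 without N2 and 0.183 without T2). HP1Lcsd, an HP1-like chromoshadow gene, was 2.08-fold lower and lost its call without T2 (edgeR adjusted p = 0.112). Other leading decreases were CG32259, CG14757, lncRNA:CR44330, CG4686, CG15432 and CG32625, by 2.04-fold to 2.89-fold. Of these, lncRNA:CR44330 and CG15432 lost their calls without T2 (edgeR adjusted p = 0.0602 and 0.172) and CG32625 without N2 (0.103).

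Transcripts of spermatids gave the most calls of any list. Of 27 spermatid genes tested, 7 were called higher and 0 lower, the median log2 fold change was 1.45, and in 26 of 27 both Nanos-Upd libraries were above both TrafficJam-Upd libraries, where 41% of all tested genes were. Of all tested genes, 2.05% were called higher, and over both directions the libraries of 59.7% did not overlap. S-Lap7, one of the leucyl aminopeptidases that are abundant in sperm, was at 85.2 and 46.2 against 18.9 and 17.5 CPM (log2 1.70 ± 0.28 SE, edgeR adjusted p = 0.0124). Mst36Fa, a male-specific transcript, was at 6.29 and 4.77 against 1.07 and 0.650 CPM. djl, a relative of the sperm tail gene dj, was at 32.1 and 17.5 against 6.25 and 8.18 CPM. In these genes N1 was the highest library. Mst36Fa lost its call without T2 (edgeR adjusted p = 0.182). S-Lap3, S-Lap8, Mst98Ca (edgeR adjusted p = 0.0532 without N1) and janB were the others called, and betaTub85D, the testis-specific tubulin, was at 63.2 and 33.8 against 11.8 and 11.04 CPM (edgeR adjusted p = 0.00974). The number of spermatid genes called was 7 without N1, 27 without N2, 17 without T1 and 21 without T2. With the spermatocyte class added to the sums, the median of the list was -0.28.

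The same transcripts were followed in the other classes of the libraries. Of the 194 genes called higher, 105 (54.1%) had a mean level in the authors' spermatocyte class at least 10 times that in GSC-like cells, as had 13.9% of all tested genes and 0 of the 101 called lower. These 105 summed to 2645 and 1490 CPM in Nanos-Upd and 571 and 632 CPM in TrafficJam-Upd GSC-like cells. In CySC-like cells, which are somatic, they summed to 3313 and 1575 against 779 and 964 CPM, and in muscle cells to 3217 and 1751 against 653 and 639 CPM. The summed level was thus of the same order in germline, cyst and muscle classes of a library, and it was 49672 to 74962 CPM in the spermatocyte class. The 6 spermatid markers summed to 562 and 280 against 141 and 204 CPM among GSC-like cells and to 715 and 285 against 204 and 183 CPM in muscle cells. Spermatocyte-class cells made up 5.40 and 1.17% of the Nanos-Upd and 2.90 and 4.77% of the TrafficJam-Upd libraries. The part of RNA from other cells in these differences was not tested. Among the 89 other genes called higher, the summed level was 9402 and 8685 CPM in Nanos-Upd and 3745 and 2598 CPM in TrafficJam-Upd GSC-like cells. Their median log2 fold change was 1.30, compared with 0.61 among CySC-like cells for the 77 genes fitted there. The 101 genes called lower summed to 4043 and 3895 against 7585 and 8603 CPM. Their median was -1.25, compared with -0.67 among CySC-like cells for the 83 genes fitted there. These sets were chosen by their calls in GSC-like cells, which fixes the order of the GSC-like sums and favours larger fold changes there. With genes of at least 10 times the GSC-like level in the spermatocyte class left out before the fit, 177 genes were called, 106 higher and 71 lower, and 153 of them were among the 295.

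**Figure D3:**
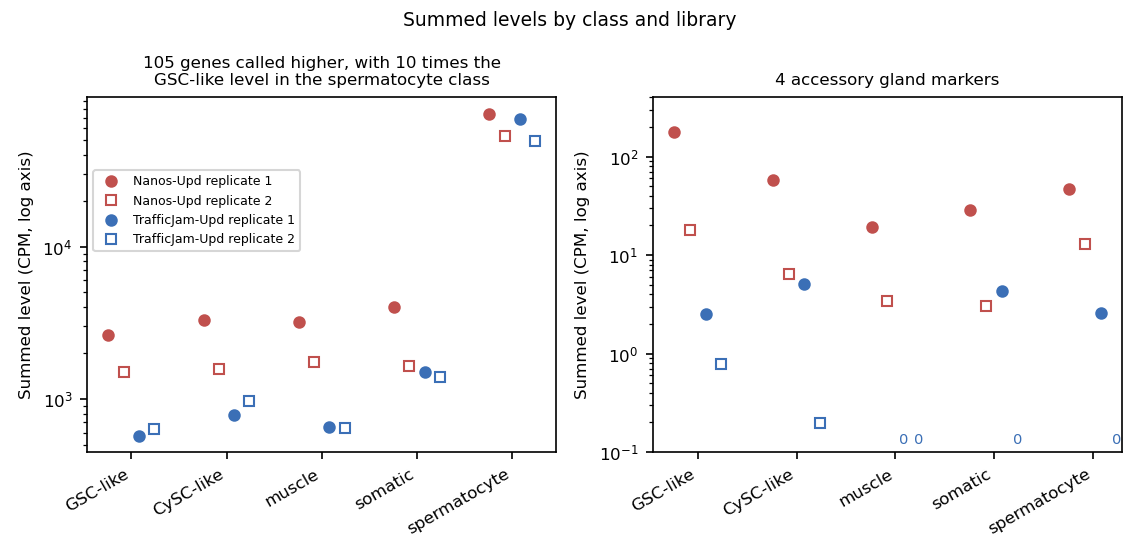
Summed level by class and library, in CPM on a log axis, of the 105 late germline genes called higher (left) and of 4 accessory gland markers (right, where 0 marks a library without a UMI). On the left, the red Nanos-Upd points lie above the blue TrafficJam-Upd points in the CySC-like, muscle and somatic classes. They do so in the GSC-like class too, where the choice of genes called higher fixed that order. N1 is highest in each class.

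Accessory gland transcripts were highest as a sum in N1. In 8 of 9 tested genes both Nanos-Upd libraries were above both TrafficJam-Upd libraries, where 41% of all tested genes were. The accessory gland makes seminal fluid proteins and is not part of the testis. Its 9 tested genes gave no call in edgeR, although their level ranged widely: the whole list summed to 713 and 61.8 CPM in Nanos-Upd and to 6.78 and 1.30 CPM in TrafficJam-Upd GSC-like cells. Acp95EF was at 288 and 21.6 against 1.96 and 0.390 CPM, and SP, the sex peptide, at 83.3 and 6.97 against 0.536 and 0 CPM. N1 stood far above the rest. With N2 left out, 11 genes of the list were called, more than the 9 because more passed the filter on low counts; 8 were called with N1 left out and 2 each with T1 or T2 left out. In CySC-like cells the list summed to 209 and 23.5 against 28.5 and 1.19 CPM. Sfp79B, a seminal fluid gene chosen after its values were seen, was called at 22.0 and 6.41 against 0.178 and 0 CPM (edgeR adjusted p = 0.0109). Stress-induced humoral factors of the Turandot family showed a like spread: TotA was at 53.1 and 3.88 against 1.43 and 0.650 CPM and was not called (edgeR adjusted p = 0.375).

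Ribosome, mitochondrial and replication lists held few calls, as did all tested genes, of which 2.05% were called higher and 1.07% lower. The counts alone thus do not set these lists apart. Of 93 cytosolic ribosomal protein genes, 1 (RpS14b) was called, the median was -0.33, and in 63 of 93 both Nanos-Upd libraries were below both TrafficJam-Upd libraries, where 18.7% of all tested genes were. Their summed level was 318270 and 299400 CPM in Nanos-Upd and 337130 and 363940 CPM in TrafficJam-Upd. Without T1, 15 of them were called lower. Of 74 mitochondrial ribosome genes 1 (mRpL20) was called lower, with a median of -0.42, and of 93 nuclear genes of oxidative phosphorylation 2 were called higher (ATPsynCF6L and ND-51) and 1 lower (Cox11), with a median of -0.37. Without T1 the mitochondrial ribosome gave 8 calls lower, and oxidative phosphorylation gave 22 lower and 1 higher; without N2 the latter gave 12 higher and 0 lower. Each single call rested on few libraries: mRpL20 was lost without N1 or T2 (edgeR adjusted p = 0.123 and 0.375), ATPsynCF6L without T1 (0.115), Cox11 without N2 or T2 (0.0541 and 0.123), and ND-51 without N2, T1 or T2 (0.0570, 0.143 and 0.0971). Of 51 DNA replication genes, 1 was called lower: Sld5, a subunit of the GINS helicase complex, at 33.1 and 28.2 against 45.3 and 48.5 CPM (edgeR adjusted p = 0.0450, with a median of -0.26 for the list). That call was lost without N2 (edgeR adjusted p = 0.113) and without T2 (0.207). Of 98 chromatin genes, with a median of 0.01, 1 was called lower, Dpy-30L1, a subunit of histone methyltransferase complexes, at 90.2 and 80.8 against 117 and 142 CPM. Its edgeR adjusted p was 0.0478, and 0.0516, 0.103 and 0.404 without N1 and N2 and T2. Rpt4R (proteasome), Surf6 (ribosome biogenesis) and FDY (chromosome Y, a copy of an autosomal gene and thus uncertain) were single members called lower in their lists, and each lost its call without T2 (edgeR adjusted p = 0.0971, 0.325 and 0.174). Rpt4R was also lost without N1 (edgeR adjusted p = 0.101) and Surf6 without N1 or N2 (0.131 and 0.0898). No member was called in 21 of the 41 lists. Among them were BMP (18 genes), EGFR and MAPK (22), Hedgehog (10), Notch (13), insulin and TOR (22), piRNA (39), mitosis (52), cyst lineage (20) and muscle (17) genes. With 3.12% of all tested genes called, an absence of calls in such short lists does not show that the tumor types were alike. Leaving out N1 gave 6 calls higher in the cyst lineage list and 3 higher and 1 lower among 26 adhesion genes; leaving out N2 gave 3 higher in the EGFR and MAPK list, and leaving out T1 gave 3 higher in the insulin and TOR list.

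**Figure D4:**
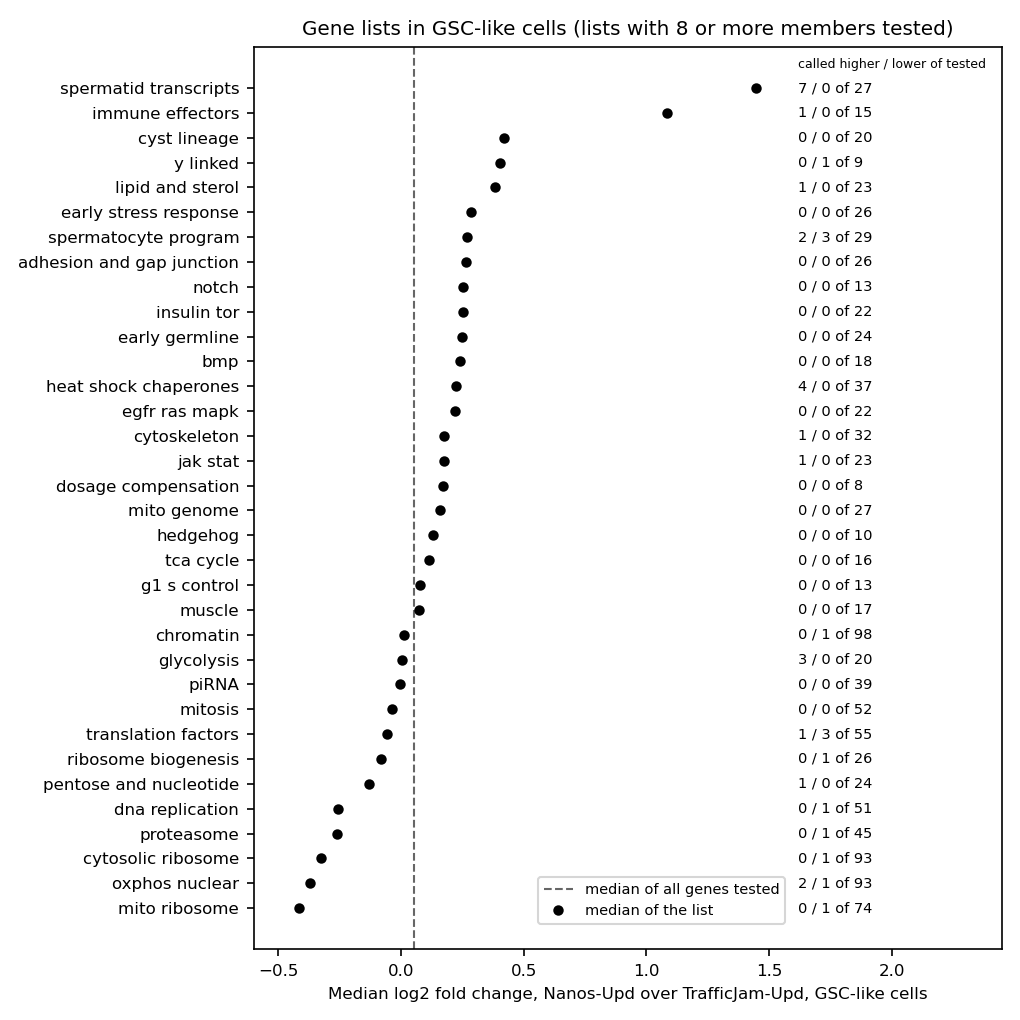
Median log2 fold change (Nanos-Upd over TrafficJam-Upd) of 34 gene lists with at least 8 tested members in GSC-like cells, leaving out the accessory gland and transgene-linked lists; numbers at the right give members called higher, called lower and tested. Spermatid transcripts have the highest median shown (1.45), and the mitochondrial ribosome (-0.42) lies at the low end, against 0.05 for all genes (dashed).

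To see which differences were particular to the germline class, the difference between tumor types in GSC-like cells was tested against that in CySC-like cells of the same libraries. This interaction was called for 132 of 9787 genes (1.35%), 77 (0.787%) with a higher value in GSC-like cells and 55 (0.562%) with a lower one. In CySC-like cells alone, 247 of 8701 genes were called (2.84%), 137 of them higher (1.57%) and 110 lower (1.26%) in Nanos-Upd. The interaction gave 95 calls without N1, 202 without N2, 77 without T1 and 280 without T2. Of the named genes, 15 were called both here and between tumor types in GSC-like cells, and those described next were chosen from them after their values were seen. bnl, the FGF ligand Branchless, was lower in Nanos-Upd GSC-like cells, at 10.9 and 11.04 against 41.2 and 23.9 CPM, and at 70.5 and 85.8 against 51.7 and 36.0 CPM in CySC-like cells. The order of the tumor types was therefore opposite in the 2 classes, with an interaction of -2.46 (log2, edgeR adjusted p = 1.01e-09). Eno was at 204.5 and 214 against 189 and 176 CPM in CySC-like cells, where the tumor types lay close together, and its interaction was 1.66 (edgeR adjusted p = 5.86e-07). Ald1 (0.93) and Lsd-2 (1.26) also passed, with CySC-like levels of 204 and 235 against 164 and 160 CPM and 156 and 114 against 147.9 and 159 CPM. fs(1)K10, needed for polarity of the fly oocyte, was at 34.7 and 45.6 against 11.1 and 8.05 CPM in the germline class, and at 19.3 and 25.1 against 19.2 and 17.8 CPM in the cyst class. B9d1 had an interaction of -2.11, and Sec61gamma and achi had -0.81 and -1.004.

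Other differences were seen in both classes. CG1894 was at 17.3 and 14.8 against 67.0 and 124 CPM in CySC-like cells, a log2 fold change of -2.73, and its interaction did not pass (edgeR adjusted p = 0.857). RpS14b was at 260 and 260 against 686 and 883 CPM there, and Hsp68 at 233 and 305 against 91.2 and 114 CPM. Neither had an interaction past the threshold (edgeR adjusted p = 0.833 and 0.982), which does not show that the classes were alike. For upd1 the interaction of 7.12 did not pass either (edgeR adjusted p = 0.204), although the CySC-like levels of 4.24 and 10.9 against 77.4 and 65.8 CPM had the opposite order.

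**Figure D5:**
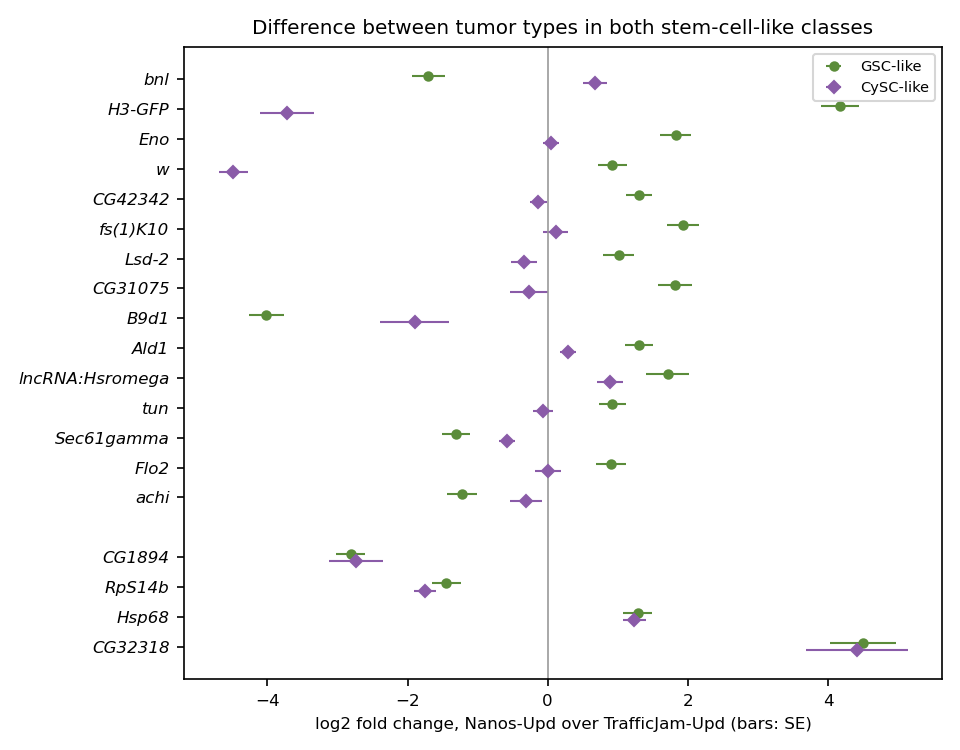
Log2 fold change (Nanos-Upd over TrafficJam-Upd) with its standard error in GSC-like (circles) and CySC-like cells (diamonds); the upper 15 genes were called both in GSC-like cells and in the test of the difference between classes, the lower 4 were not called in the latter. For bnl, H3-GFP and w the 2 classes lie on opposite sides of 0. So do those of CG31075, Lsd-2, CG42342 and tun, with CySC-like values of -0.26, -0.34, -0.13 and -0.06. For CG1894, RpS14b, Hsp68 and CG32318 the classes lie on the same side.

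Genomic position and gene length were described last. Of the genes called lower, 26 of 101 (25.7%) were X-linked, as were 30 of 194 called higher (15.5%) and 17.1% of all tested genes. The genomic span of a gene, from the annotation, had a median of 2481.5 bp over all tested genes, 2621 bp for those called higher and 1021 bp for those called lower. In the first of 4 equal groups of genes ordered by span, the shortest, the median log2 fold change was -0.24, and it was -0.12, 0.08 and 0.24 in the groups that followed. CySC-like cells had the values -0.26, -0.09, 0.07 and 0.18 in the same order, so both classes had lower values for short and higher values for long genes. The shortest group held 47 genes called higher and 63 called lower, and the longest held 62 and 11. Median ribosomal shares of the libraries moved in the same direction, being lower in Nanos-Upd. Their part in the trend was not tested.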

How the data were processed

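Tumor cells were profiled with 10x Genomics 3' chemistry, from about 18 to 20 testis pairs per genetic strategy, per the labels. Cell Ranger 7.0.0, Seurat 5.0.3 and build dm6 are named in the submitters' processing notes. The authors deposited raw UMI counts per gene and cell, with a table giving each cell's class and library, its percent of mitochondrial and of ribosomal UMIs, and embedding scores that were not used here. How classes were assigned and doublets treated is not given in the sources used here, and all deposited cells were kept (2200 to 7499 UMIs per cell).

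Counts were summed per library over the cells of a class and fitted with edgeR 4.0.16 (TMM factors of 0.921 to 1.07, filterByExpr, robust quasi-likelihood test, Benjamini-Hochberg adjustment over all tested genes) in R 4.3.3. The interaction was fitted on the GSC-like and CySC-like sums with library as a block. CPM scales a count by the class total of the library in the usual way. SE is the standard error of the log2 fold change implied by the test. Shares of cells have exact 95% binomial intervals that, like limits from 3 counts, cover counting error only. The script was tested on simulated data. Positions and spans come from Ensembl's BDGP6.54 annotation (dm6 coordinates), matched by FlyBase identifier for 17515 of 17558 features. Sequences were not used here.

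Members and gene lists were chosen with earlier results of these data known. Leading genes were the 12 largest changes in each direction among called genes with a mean of at least 50 CPM and no overlap between tumor types, and each list gave up to 4 called members per direction. The labels do not say that replicate numbers pair the libraries. The correlation of same-numbered deviations across genes was -0.08, which cannot settle whether they do. Each result was also refitted with DESeq2 1.42.0, other scalings, filters and cell selections, a replicate block, and each library left out.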

Additional observations from a re-analysis of the deposited data

Results flagged for a closer look

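In 18 of the named genes, 15 of them called in GSC-like cells, the difference between tumor types was itself different in GSC-like and CySC-like cells of the same libraries, by edgeR's interaction test with adjustment over 9787 genes. The value is the log2 fold change (Nanos-Upd over TrafficJam-Upd) of GSC-like minus that of CySC-like cells.

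Among those 15, the reporter H3-GFP had 7.8426 (edgeR adjusted p = 3.53e-09) and w had 5.3278 (edgeR adjusted p = 6.68e-06). Each was higher in Nanos-Upd GSC-like cells and in TrafficJam-Upd CySC-like cells.

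Other positive values were found. Eno had 1.6649, Lsd-2 1.2633, Ald1 0.9253 and lncRNA:Hsromega 0.7851, with the edgeR adjusted p of Ald1 and lncRNA:Hsromega at 0.00475. The oocyte polarity gene fs(1)K10 had 1.7434, CG31075 1.9949, CG42342 1.3465, tun 0.9023 and Flo2, a membrane scaffold flotillin, 0.7816. For Flo2 the edgeR adjusted p was 0.0282.

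Negative values were found for bnl, with -2.4607, for B9d1, with -2.1114, for achi, with -1.0035, and for Sec61gamma, with -0.8108. The edgeR adjusted p of achi was 0.0287. The ligand gene bnl was the only one of these 4 whose CySC-like level was higher in both Nanos-Upd libraries.

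The 3 others were not called in GSC-like cells. The accessory gland genes Acp95EF and SP had 3.517 and 3.8752 (edgeR adjusted p = 1.65e-06 and 0.00383), with N1 far above the other libraries in both classes. The lipoprotein gene apolpp, a marker of fat body, had -2.613 (edgeR adjusted p = 1.76e-06), at 49.3 and 13.2 against 17.5 and 13.1 CPM in GSC-like and 47.7 and 11.8 against 2.10 and 2.96 CPM in CySC-like cells. Acp98AB passed too, but had 0 UMIs in T1 and T2, so no fitted value is given.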

How the results depend on the processing

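Over 75 named called genes and 1100 refits, 922 kept the call, 168 lost it and 10 changed sign, and 0 of the 75 were called in every setting.

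GSC-like calls (295; 194 higher and 101 lower) became 528 (306 and 222) in DESeq2, 147 (93 and 54) with at least 3000 UMIs per cell, and 1154 (777 and 377) with no filter on low counts, which moved the median of all genes from 0.05 to 0.17. They became 566 (386 and 180) without mitochondrial, ribosomal protein and heat shock genes. Without mixed cells they became 717 (487 and 230), and without genes 10 times higher in the spermatocyte class, a setting chosen after seeing the data, 177 (106 higher). Leaving out 1 library gave 312 to 1490 calls, 278 to 1329 higher and 34 to 385 lower. With the replicate block there were 552 calls, 425 of them higher. Whether the replicate numbers pair the libraries is not given in the labels.

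With the spermatocyte class added to the sums, 0 genes were called, 0 higher and 0 lower (922 at an unadjusted p under 0.05), and 10 late germline or testis genes changed sign on the log2 scale: CG4836 (-0.064), CG12699 (-0.2615), sunz (-0.2012), S-Lap7 (-0.0257), djl (-0.2947), eIF4E4 (-0.1989), Hsp60C (-0.0855), w-cup (-0.0633), Mst98Ca (-0.1669) and Mst84B (-0.2073). Adding those cells changes the population summed.

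The interaction (132 calls) gave 54 in DESeq2, 68 with at least 3000 UMIs per cell, 301 with the replicate block and 77 to 280 without 1 library. CySC-like calls (247) became 527 in DESeq2, 1494 with no filter, 163 with the replicate block, 798 without the spermatocyte-class genes and 111 to 1264 without 1 library. The causes were not tested. Depth limits the rarest genes: in T1, the smallest sum, the 0.178 CPM of sunz is 1 UMI.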
